A study of Mus musculus with 7 samples.

Results

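The *Ugt1a* locus encodes a family of UDP-glucuronosyltransferases, and 8 of its genes (*Ugt1a1*, *Ugt1a2*, *Ugt1a5*, *Ugt1a6a*, *Ugt1a6b*, *Ugt1a7c*, *Ugt1a9* and *Ugt1a10*) are described here across 7 mouse livers. They were taken by gene symbol from a count table of 23347 genes, of which 15179 were expressed highly enough to be tested and 6 of those were members. RNA sequencing had been run on whole livers of male C57BL/6 mice that were 6 to 8 weeks old when CDAHFD was started (a high-fat, choline-deficient diet with defined L-amino acids that produces steatohepatitis), and all 7 received it for 15 weeks. The 4 WT livers came from *B4galt1* flox/flox littermates, which carry the floxed alleles but no Cre. The 3 livers labelled B4-HKO, written B4galt1-HKO here, came from *B4galt1* hep-/- mice. In these mice, Cre driven by the albumin promoter is meant to remove *B4galt1* (a galactosyltransferase of the Golgi) from hepatocytes, leaving the other liver cells unrecombined. Each library is 1 mouse by its label. Mice on chow are not analysed here. The question addressed by the comparison is what hepatocyte loss of *B4galt1* changes in the livers of mice on this diet.

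The label of the HKO group was only in part borne out by the targeted transcript. *B4galt1* was measured at 48.7, 53.0, 49.2 and 51.6 CPM (counts scaled to a common library size, TMM-normalized) in WT replicates 1 to 4, and at 28.4, 23.9 and 53.7 CPM in B4galt1-HKO replicates 1 to 3. Replicate 3 of the HKO group was thus the highest of all 7 livers, and the difference (log2 fold change -0.52, SE 0.26) did not pass the test (edgeR quasi-likelihood test, Benjamini-Hochberg adjusted p = 0.181). Results are therefore given for livers labelled B4galt1-HKO, with values without replicate 3 for the members and for other called genes where it ends the call or moves the fold by over 1.5 times. Library totals were 37838654 to 39668509 counts in WT and 30608271 to 34586588 in HKO, and the share of counts from mitochondrially encoded genes was 3.88 to 7.996% in WT against 14.4 to 22.6% in HKO. Among 8 hepatocyte markers none passed the edgeR test, and 2 were called by DESeq2. *Apoa1* (log2 0.70, higher in HKO) and *Cps1* (log2 -0.85) had an unadjusted p under 0.05 by edgeR. The summed hepatocyte level, most of it *Alb*, was 79340 to 118519 CPM in WT and 95118 to 149638 CPM in HKO. Of 5 macrophage markers, *Adgre1* (-1.88) and *Cd68* (-1.15) fell on the log2 scale (4 of 5 at an unadjusted p under 0.05, and 4 called by DESeq2), the summed level being 390 to 732 CPM in WT and 249 to 282 CPM in HKO. Of 5 endothelial markers only *Kdr* was called, and it fell (-1.33). The summed endothelial level was 64.8 to 259 CPM in WT and 85.2 to 106 CPM in HKO, inside the WT range. No cholangiocyte, stellate cell, lymphocyte or neutrophil marker was called by edgeR (1 lymphocyte and 1 neutrophil marker had an unadjusted p under 0.05, and DESeq2 called 1 lymphocyte marker). Without HKO replicate 3 the *Kdr* call was lost (-1.34), and 1 hepatocyte marker was lower and 1 neutrophil marker higher.

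Glucuronosyltransferases sit in the membrane of the endoplasmic reticulum and join glucuronic acid, taken from UDP-glucuronic acid, to bilirubin, steroids, bile acids, drugs and phenols, which makes these compounds soluble enough for export into bile or urine. In the *Ugt1a* locus every member has a promoter and a long opening exon of its own, which encodes the part of the enzyme that binds the acceptor, and all members splice onto the same downstream exons, which encode the part that binds UDP-glucuronic acid. The locus is controlled in hepatocytes by receptors that sense foreign and endogenous compounds, among them CAR, PXR, AHR, PPARα and the oxidant-responsive factor NRF2.

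Because the opening exon and the promoter are what tells the members apart, the promoter of each of 5 members is shown. They are 4 of the tested members and *Ugt1a2*, which was close to absent. Each runs 5′ to 3′ from 250 bases before to 50 bases after the start site annotated by RefSeq (build GRCm38.p6, + strand, an earlier build than the GRCm39 named in the submitters' notes). The windows lie at chr1:88211709-88212008 for *Ugt1a1*, chr1:88134559-88134858 for *Ugt1a6a*, chr1:88070529-88070828 for *Ugt1a9*, chr1:88165762-88166061 for *Ugt1a5* and chr1:88200361-88200660 for *Ugt1a2*, and capitals mark the core GCGTG of the element bound by AHR, a receptor for aromatic compounds.
Ugt1a1: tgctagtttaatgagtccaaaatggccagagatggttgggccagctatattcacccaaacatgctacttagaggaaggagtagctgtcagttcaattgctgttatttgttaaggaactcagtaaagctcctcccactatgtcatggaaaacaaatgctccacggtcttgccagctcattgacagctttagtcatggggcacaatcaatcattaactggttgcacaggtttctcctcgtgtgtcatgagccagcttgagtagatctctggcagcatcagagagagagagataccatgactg
Ugt1a6a: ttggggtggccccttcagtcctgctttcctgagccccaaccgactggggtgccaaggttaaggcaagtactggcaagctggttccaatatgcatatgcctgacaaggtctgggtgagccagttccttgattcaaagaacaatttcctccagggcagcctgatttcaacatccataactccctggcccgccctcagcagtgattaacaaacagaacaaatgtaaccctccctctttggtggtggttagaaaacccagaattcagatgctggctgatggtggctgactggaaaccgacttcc
Ugt1a9: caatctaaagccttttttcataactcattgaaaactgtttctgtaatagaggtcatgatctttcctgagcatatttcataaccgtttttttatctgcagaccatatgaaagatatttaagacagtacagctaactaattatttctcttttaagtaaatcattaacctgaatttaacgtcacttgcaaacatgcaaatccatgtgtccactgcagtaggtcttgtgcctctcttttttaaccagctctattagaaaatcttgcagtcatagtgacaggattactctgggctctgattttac
Ugt1a5: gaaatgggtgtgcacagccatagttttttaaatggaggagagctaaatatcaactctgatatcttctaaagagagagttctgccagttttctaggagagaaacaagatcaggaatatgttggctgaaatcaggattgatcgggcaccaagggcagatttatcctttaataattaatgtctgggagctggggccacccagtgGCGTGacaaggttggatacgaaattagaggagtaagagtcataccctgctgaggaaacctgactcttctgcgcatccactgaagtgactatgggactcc
Ugt1a2: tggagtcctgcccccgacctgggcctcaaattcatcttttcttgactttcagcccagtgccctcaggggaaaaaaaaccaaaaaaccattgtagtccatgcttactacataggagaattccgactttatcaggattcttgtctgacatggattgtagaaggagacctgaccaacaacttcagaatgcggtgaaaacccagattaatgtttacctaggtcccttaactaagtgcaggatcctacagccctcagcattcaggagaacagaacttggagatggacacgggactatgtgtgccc

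RefSeq gave such a window for 7 of the 8 members, all but *Ugt1a6b*. Searched on both strands, the AHR core was matched in *Ugt1a5* only, 49 bases before the start, and its letters were not in the windows of the other 6. Of 32851 promoters of the same length, 32.4% held it. Neither the antioxidant response core TGACNNNGC (12.4% of promoters) nor the PPAR direct repeat with a 1-base spacer (0.0396%) matched any member window. These are letter matches and carry no measurement of binding.

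The transcripts of the locus were much less abundant in the livers labelled B4galt1-HKO. Counts summed over the 8 members came to 203, 288, 322 and 134 CPM in WT replicates 1 to 4, and to 13.4, 13.96 and 48.6 CPM in HKO replicates 1 to 3. All HKO livers lay below all WT livers, and replicate 3, in which *B4galt1* was not reduced, was the highest of the 3. The means were 237 ± 84.8 CPM (SD, n = 4) and 25.4 ± 20.2 CPM (SD, n = 3), so that the HKO livers held 10.7% of the WT level (log2 ratio -3.22). Without HKO replicate 3 the log2 ratio was -4.11. These members were singled out because *Ugt1a1* and *Ugt1a6b* stood among the steepest falls in the same comparison, so their differences are given as a description without a test. In bulk tissue, fewer cells of a type and less RNA per cell cannot be told apart.

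*Ugt1a1* (NCBI gene 394436), the enzyme that conjugates bilirubin, dominated the locus. Its level was 151, 222, 243 and 98.4 CPM in WT replicates 1 to 4 and 9.64, 10.7 and 35.6 CPM in HKO replicates 1 to 3. The highest HKO liver thus remained below the lowest WT liver, and WT itself spanned a 2.47-fold range. The means were 178 ± 66.3 CPM (n = 4) and 18.6 ± 14.7 CPM (n = 3, both with SD), a log2 fold change of -3.26 (SE 0.50), and of -4.14 without HKO replicate 3.

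The *Ugt1a6* pair encodes enzymes that act on small planar phenols. *Ugt1a6b* (NCBI gene 394435) measured 21.8, 28.4, 36.0 and 15.3 CPM in WT and 1.66, 1.69 and 5.43 CPM in HKO, with a log2 fold change of -3.12 (SE 0.46). *Ugt1a6a* (NCBI gene 94284) measured 13.2, 17.6, 21.0 and 9.80 CPM in WT and 0.617, 0.513 and 2.93 CPM in HKO, with a log2 fold change of -3.51 (SE 0.56). In both genes the WT livers kept the same order, replicate 3 being highest and replicate 4 lowest, and no HKO liver reached the WT range. Without HKO replicate 3 the log2 fold changes were -3.93 for *Ugt1a6b* and -4.77 for *Ugt1a6a*.

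*Ugt1a9* (NCBI gene 394434), whose human counterpart conjugates phenols such as propofol, showed the smallest fall of the members tested by edgeR over all 7 livers, though not without HKO replicate 3, where *Ugt1a7c* (-2.81) did, nor without WT replicate 3. On log2(FPKM + 1) it was not the smallest either, at -1.44 against -1.42 for *Ugt1a5*, and -0.46 for *Ugt1a7c* without a filter. *Ugt1a9* measured 10.8, 7.35, 10.1 and 6.84 CPM in WT and 0.779, 0.694 and 3.09 CPM in HKO (log2 fold change -2.53, SE 0.49). Its WT livers were the least spread of the 6 members, with a 1.58-fold range, and replicate 1 was highest. *Ugt1a5* (NCBI gene 394433) measured 5.24, 11.1, 8.71 and 3.39 CPM in WT and 0.325, 0.332 and 1.32 CPM in HKO (log2 fold change -3.44, SE 0.59). The values of HKO replicates 1 and 2 rest on 10 and 11 counts. Leaving out HKO replicate 3 gave -3.58 for *Ugt1a9* and -4.44 for *Ugt1a5*.

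The remaining members were scarce in these livers. *Ugt1a7c* (NCBI gene 394432), the counterpart of a human enzyme found mainly outside the liver, had 33, 65, 141 and 21 counts in WT and 13, 1 and 8 counts in HKO. That corresponds to 0.593 to 3.30 CPM in WT and 0.0302 to 0.422 CPM in HKO, a log2 fold change of -2.72 (SE 0.82) and of -2.81 without HKO replicate 3, and here HKO replicate 1, not replicate 3, was the highest. All 4 WT livers but only 1 HKO liver exceeded the filter level of 0.264 CPM, so the gene entered the table of tested genes through the WT group. *Ugt1a10* (NCBI gene 394430), also mainly extrahepatic in humans, had 7, 4, 12 and 1 counts in WT and 0, 0 and 1 in HKO, too few to be tested. Pooled over livers this is 24 against 1 count, a rate ratio of HKO to WT of 0.0713 with an exact 95% interval of 0.00173 to 0.437 that covers counting error only. *Ugt1a2* (NCBI gene 22236) had 0, 4, 1 and 0 counts in WT and none in HKO, where a count of 0 allows up to 3 counts, or 0.0905 to 0.0987 CPM, so no fold change is given. A further gene of the locus, *Ugt1a8*, which is no member, had 1 count in HKO replicate 2 and none elsewhere.

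**Figure D1:**
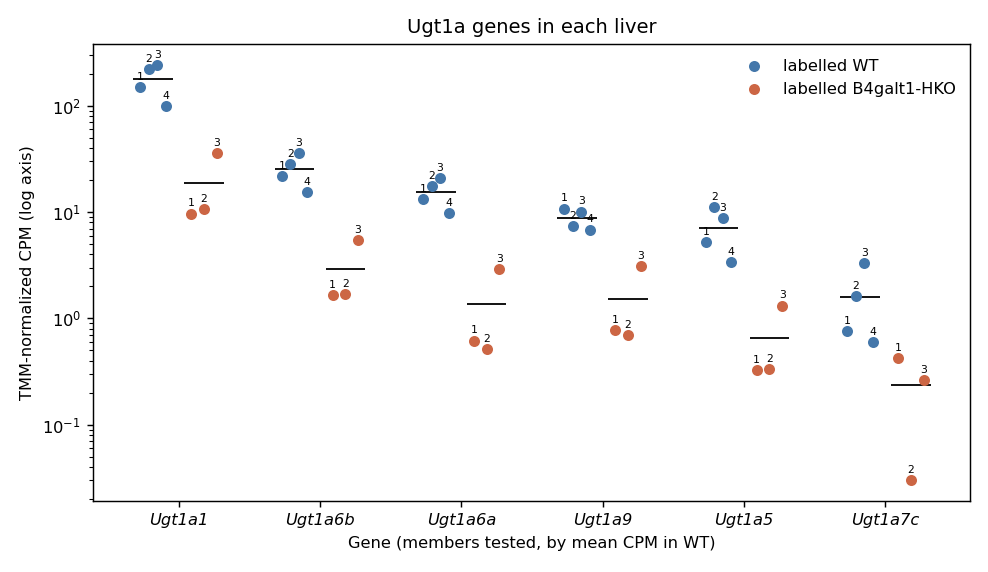
Level of the 6 tested *Ugt1a* members in each liver, as TMM-normalized CPM on a log axis. Points are livers numbered by replicate, lines are group means, WT is blue and livers labelled B4galt1-HKO are orange. In all 6 genes the HKO points lie below the WT points, and HKO replicate 3 is the highest of its group except in *Ugt1a7c*.

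In every one of the 6 tested members each HKO liver lay below each WT liver, a pattern that 15.0% of all tested genes also showed in that direction (13.6% showed the opposite). All 6 were past the threshold for a lower level (a log2 fold change below -0.58 with an adjusted p under 0.05), as were 7.83% of all tested genes, and nothing is read from either count since the members were chosen on this contrast. *Ugt1a7c* was past it in only 3 of the 7 fits that left out a liver (not without WT replicate 2, WT replicate 3, HKO replicate 2 or HKO replicate 3), and in none on FPKM. Calls in the whole table were 15.8% in either direction, of which 50.5% were higher in HKO. On the deposited FPKM scale, 24.5% of calls were higher and the median of all genes moved to -0.14 (log2), against 0.02 on counts. The log2 fold changes of the 6 members spread from -3.51 for *Ugt1a6a* to -2.53 for *Ugt1a9*, and the ranges of 1 SE around these extremes overlapped (-4.07 to -2.95 and -3.02 to -2.03). Leaving the mitochondrially encoded genes out of the library totals left the locus ratio at -3.23 (log2). WT replicate 4, the lowest WT liver in all 6 members, also had the highest mitochondrial share of its group (7.996%), and HKO replicate 3 had the lowest of its group (14.4%). The part of the mitochondrial share, and of the lower macrophage markers, in the falls was not tested.

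Levels can be ranked between members only per length of sequence that tells them apart. The deposited FPKM for *Ugt1a1* used a gene length of 3229 bases, which equals its own first coding exon (913 bases) plus 2316 bases, the length of the exons shared by all members. *Ugt1a2*, with at most 4 counts, shares those exons with *Ugt1a1*, which had up to 10365, so reads in the shared exons were not credited to each member. Expressed per kilobase of the first coding exon, WT means were 195 ± 72.6 CPM for *Ugt1a1*, 27.0 ± 9.45 for *Ugt1a6b*, 16.1 ± 5.13 for *Ugt1a6a*, 9.97 ± 2.23 for *Ugt1a9*, 7.99 ± 3.89 for *Ugt1a5* and 1.72 ± 1.36 for *Ugt1a7c* (SD, n = 4). *Ugt1a10* (0.154) and *Ugt1a2* (0.0344) came last. *Ugt1a1* stood clear of the rest in this order, whereas *Ugt1a9* and *Ugt1a5* differed by less than their spread. *Ugt1a6b* exceeded *Ugt1a6a* in every WT liver. In HKO the same scale gave 20.4 ± 16.1 for *Ugt1a1*, 3.12 ± 2.31 for *Ugt1a6b*, 1.73 ± 1.55 for *Ugt1a9*, 1.42 ± 1.43 for *Ugt1a6a*, 0.737 ± 0.639 for *Ugt1a5* and 0.261 ± 0.215 for *Ugt1a7c* (SD, n = 3), so that *Ugt1a9* and *Ugt1a6a* changed places by less than their spread. Without HKO replicate 3 these means were 11.1, 1.78, 0.838, 0.592, 0.368 and 0.247, in the same order. The authors' FPKM, which spread the reads over the whole length, gave 58.0 ± 22.7 in WT and 5.33 ± 3.80 in HKO for *Ugt1a1* (3.15 without HKO replicate 3). For *Ugt1a6b* it gave 11.6 ± 4.41 and 1.18 ± 0.786 (0.725 without HKO replicate 3) over a shorter gene length of 2293 bases.

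The make-up of the locus changed far less than its sum. *Ugt1a1* held 74.99 ± 1.59% of the locus counts in WT (SD, n = 4) and 73.9 ± 2.54% in HKO (SD, n = 3). The share of *Ugt1a6b* was 10.8 ± 0.68% and 11.9 ± 0.62%, and that of *Ugt1a5* 2.92 ± 0.64% and 2.50 ± 0.18%, with ranges that overlapped between the groups. *Ugt1a9* took 4.02 ± 1.39% in WT and 5.71 ± 0.70% in HKO, with WT values of 2.55 to 5.32% and HKO values of 4.97 to 6.36%. *Ugt1a6a* was the only tested member whose share did not overlap between the groups, with 6.53, 6.10, 6.51 and 7.29% in WT and 4.59, 3.67 and 6.02% in HKO. Set against *Ugt1a6b*, there were 58.3 to 64.0 counts of *Ugt1a6a* per 100 in WT and 30.4 to 53.9 in HKO. The HKO values rest on 17 to 89 counts of *Ugt1a6a*, and the first coding exons of this pair are 96.7% identical over 938 aligned bases with an unbroken identical run of 251 bases, so how reads were divided between them is uncertain. *Ugt1a7c* held 3.14% of the locus in HKO replicate 1 and 0.216 to 1.03% in the other livers.

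**Figure D2:**
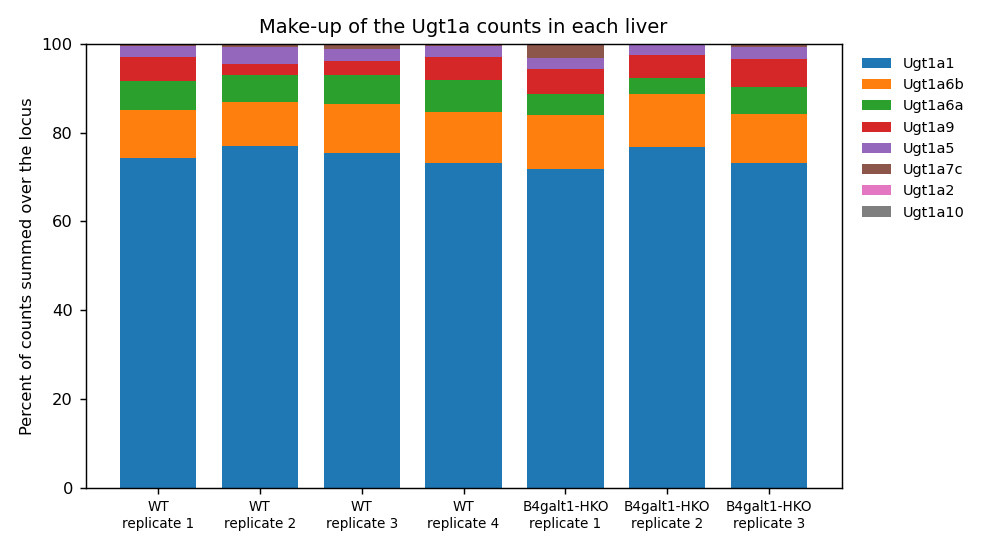
Share of each member in the counts summed over the *Ugt1a* locus, in percent, with 1 stacked bar per liver. *Ugt1a1* makes up 71.7 to 77.0% in every bar, although the bars of the HKO livers stand for 414 to 1479 counts and those of the WT livers for 4757 to 13752.

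Other members were also alike in their opening exons. *Ugt1a10* and *Ugt1a9* were 91.8% identical with an identical run of up to 83 bases, and *Ugt1a5* and *Ugt1a2* were 83.1% identical with a run of up to 116 bases. *Ugt1a9* against *Ugt1a7c* came to 82.3% with a run of up to 53 bases. The least alike pair was *Ugt1a9* and *Ugt1a2* at 68.7%. *Ugt1a1* shared no identical run over 20 bases with any member, so the most abundant transcript is also the most distinct in this respect.

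To see whether the fall extended beyond the locus, the 5 genes on each side and *Dnajb3*, which lies inside it, were examined in the order given by RefSeq. None of the 9 neighbours tested was called (edgeR, 1 of 9 at an unadjusted p under 0.05, and none by DESeq2), and their median log2 fold change was 0.26 against 0.02 for all genes. *Usp40*, a deubiquitinase next to the *Ugt1a10* end, measured 20.1 to 29.8 CPM in WT and 23.5 to 29.1 CPM in HKO (log2 0.14, SE 0.19, adjusted p = 0.647 by edgeR). On the *Ugt1a1* side, *Mroh2a* measured 1.31 to 2.37 CPM in WT and 1.02 to 1.59 CPM in HKO (log2 -0.39, SE 0.39, adjusted p = 0.520 by edgeR). The groups overlapped in both genes. No neighbour was tested against the members, since these were chosen on the same contrast. *Hjurp*, a histone chaperone of the centromere, was at 117 ± 35.6 CPM in WT and 181 ± 58.3 CPM in HKO (log2 0.63, SE 0.27, adjusted p = 0.134 by edgeR). The other 6 tested neighbours had log2 fold changes of -0.14 (*Dgkd*), 0.09 (*Inpp5d*), 0.26 (*Atg16l1*), 0.27 (*Spp2*), 0.71 (*Sag*) and 1.43 (*Glrp1*, SE 0.90, at a mean under 0.5 CPM in both groups). *Dnajb3* and *Trpm8* were too low to be tested. None of the 9 was called in any fit that left out a liver.

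**Figure D3:**
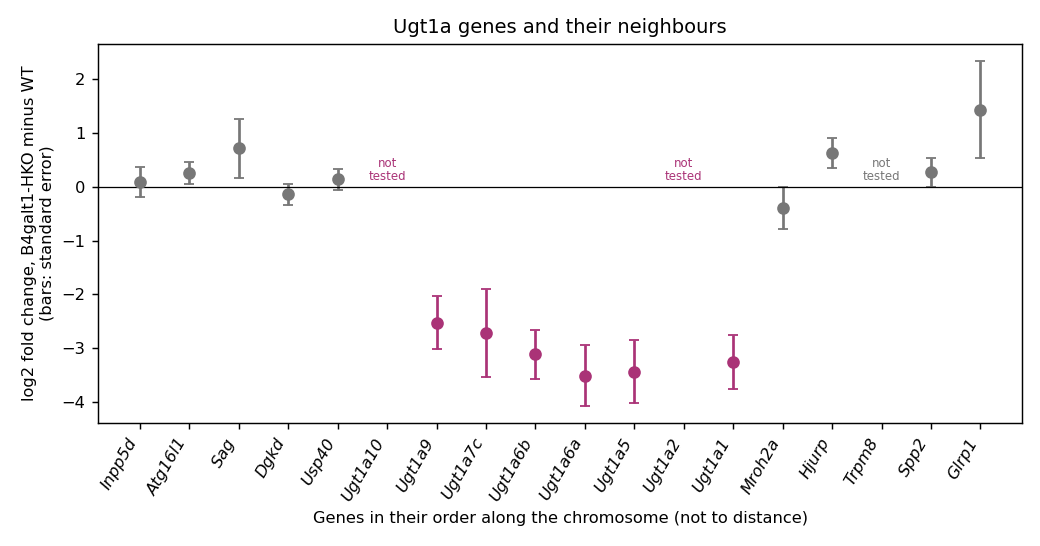
Log2 fold change (livers labelled B4galt1-HKO minus WT, bars are standard errors) of the *Ugt1a* members in purple and of the 5 genes on each side in grey, in chromosome order and not to distance. The tested members lie between -3.51 and -2.53 and the neighbours between -0.39 and 1.43. *Ugt1a10*, *Ugt1a2* and *Trpm8* were not tested, and *Dnajb3*, inside the locus and also not tested, is not drawn.

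Glucuronidation also needs its sugar donor, which is made from glucose phosphate and carried into the endoplasmic reticulum. Of 8 genes of UDP-glucuronic acid supply and turnover, 3 fell, none rose and 5 did not pass the test (edgeR, 6 at an unadjusted p under 0.05, as were 32.9% of all tested genes), with a median log2 fold change of -0.71 against 0.02 for all genes. By the same test 7.83% of all tested genes fell. *Pgm2*, among the 6, was higher in HKO, at 13.1 ± 2.49 CPM in WT and 19.4 ± 4.94 CPM in HKO without overlap (log2 0.56, adjusted p = 0.114 by edgeR). *Pgm1*, the phosphoglucomutase that feeds UDP-glucose synthesis, was 178, 205, 203 and 189 CPM in WT and 90.5, 61.4 and 121 CPM in HKO, so the groups did not overlap (log2 -1.09, SE 0.24, adjusted p = 0.0133 by edgeR). The other genes that fell do not make the donor. *Gusb*, the lysosomal enzyme that removes glucuronic acid, fell by 0.95 on the log2 scale (adjusted p = 0.0259 by edgeR), and *Slc35d2*, a nucleotide sugar transporter, fell by 0.79 (adjusted p = 0.0261 by edgeR). The steps that define the route did not pass by edgeR: *Ugp2*, which makes UDP-glucose, was at 379 ± 76.8 and 228 ± 69.8 CPM (adjusted p = 0.0799), *Ugdh*, which oxidizes it to UDP-glucuronic acid, was at 138 ± 30.2 and 92.6 ± 40.5 CPM (adjusted p = 0.220), and *Slc35d1*, the carrier into the endoplasmic reticulum, was at 90.1 ± 23.6 and 84.4 ± 16.1 CPM (adjusted p = 0.815), each given as mean ± SD for WT (n = 4) and HKO (n = 3) and tested with edgeR. *Ugp2* was nevertheless called lower by DESeq2, in the FPKM fits and without WT replicate 1, and *Ugdh* in the FPKM fits with a filter. *Pgm1* stayed past the threshold whichever liver was left out. *Gusb* and *Slc35d2* each lost their call in 4 of the 7 fits, in both cases without WT replicate 2 or HKO replicate 2, and in addition without WT replicate 3 or HKO replicate 1 for *Gusb* and without WT replicate 4 or HKO replicate 3 (-0.72) for *Slc35d2*.

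*Ugt* genes encoded elsewhere in the genome, among which *Ugt3* and *Ugt8* do not encode glucuronosyltransferases, were examined beside the locus. Of 11 tested *Ugt2*, *Ugt3* and *Ugt8* genes, 3 were lower and none higher (edgeR, 5 at an unadjusted p under 0.05), with a median log2 fold change of -0.66. Among all tested genes, 7.83% were called lower and 32.9% had an unadjusted p under 0.05 by edgeR. The number of these *Ugt* genes called lower was 5 with DESeq2 and 5 without HKO replicate 3, and 1 without WT replicate 2 or WT replicate 4. *Ugt3a1* was 29.1 to 42.7 CPM in WT and 6.002 to 19.1 CPM in HKO (log2 -1.55, SE 0.33, adjusted p = 0.0120 by edgeR), and it kept its call whichever liver was left out. *Ugt2b35* was 106 to 157 CPM in WT and 35.5 to 73.7 CPM in HKO (log2 -1.13, SE 0.28, adjusted p = 0.0225 by edgeR), and it lost its call without WT replicate 2 or WT replicate 4. *Ugt2b38* was low throughout, with 1.08 to 2.43 CPM in WT and 0 to 0.460 CPM in HKO (log2 -3.40, SE 0.91, adjusted p = 0.0293 by edgeR), a call that was lost without WT replicate 2, WT replicate 4 or HKO replicate 1. Without HKO replicate 3 its fitted log2 fold change was -6.52, with 1 count left in the HKO group. *Ugt2b1*, at 153 ± 27.8 CPM in WT and 78.7 ± 35.0 CPM in HKO without overlap (log2 -0.96, adjusted p = 0.0516 by edgeR), was called lower by DESeq2, without the filter on low counts, in all FPKM fits, with mitochondrially encoded genes left out, and without WT replicate 1 or HKO replicate 3. The most abundant of these genes did not pass the edgeR test. *Ugt2b5* was at 421 ± 78.0 CPM in WT and 285 ± 109 CPM in HKO, and *Ugt2b36* at 400 ± 66.6 and 252 ± 66.2 CPM (SD, n = 4 and n = 3). *Ugt2b36* was called lower by DESeq2 and in the FPKM fits, and *Ugt2b5* in the FPKM fits with a filter. The *Ugt2b* genes are near copies of each other, so their separate values are uncertain. Whether the *Ugt1a* falls differ from these was not tested, since the members were chosen for theirs.

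Bilirubin is formed from heme by heme oxygenase and biliverdin reductase, taken up from blood by organic anion transporters, conjugated by UGT1A1 and exported. Of 12 genes along this route 4 fell, none rose and 8 did not pass the test (edgeR, 7 at an unadjusted p under 0.05), and the median log2 fold change was -0.51. Those counts compare with 7.83% of all tested genes called lower and 32.9% at an unadjusted p under 0.05 by edgeR. The 4 that fell were among 8 transporters in the list. The other 4 transporters were not called, with log2 fold changes of -0.53 for *Abcc4*, -0.49 for *Abcg2*, -0.39 for *Slco2b1* and 0.45 for *Slco1a4*, and whether transporters differed from the rest of the route was not tested. The uptake transporter *Slco1b2* was 404, 528, 719 and 464 CPM in WT and 230, 147 and 276 CPM in HKO (log2 -1.28, SE 0.28, adjusted p = 0.0133 by edgeR), and it kept its call whichever liver was left out. *Abcc2*, which exports bilirubin glucuronides into bile, was 335, 319, 329 and 236 CPM in WT and 127, 135 and 209 CPM in HKO (log2 -0.96, SE 0.24, adjusted p = 0.0226 by edgeR). Neither gene overlapped between the groups. *Abcc3*, the exporter back into blood, was 189 to 273 CPM in WT and 132 to 136 CPM in HKO (log2 -0.74, SE 0.19, adjusted p = 0.0274 by edgeR). *Slco1a1*, an uptake transporter, fell by 3.54 on the log2 scale (adjusted p = 0.0302 by edgeR) with overlapping groups, since WT replicate 2 had 0.778 CPM and HKO replicate 3 had 1.18 CPM. Without HKO replicate 3 its log2 fold change was -5.78. The calls of *Abcc2* and *Abcc3* were lost without WT replicate 2, WT replicate 3, HKO replicate 1 or HKO replicate 2, and that of *Slco1a1* without WT replicate 3, WT replicate 4, HKO replicate 1 or HKO replicate 2. Upstream of conjugation, *Hmox1*, the inducible heme oxygenase, was at 114 ± 31.8 and 71.5 ± 16.2 CPM (adjusted p = 0.0842 by edgeR), and *Blvra*, biliverdin reductase, was at 19.7 ± 3.39 and 15.7 ± 3.63 CPM (adjusted p = 0.315 by edgeR), with n = 4 and n = 3.

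The list of regulators held 12 genes, all for transcription factors or receptors but *Keap1*, which encodes the adaptor that holds back NRF2. Of these, 1 fell, 1 rose and 10 did not pass the test (edgeR, 3 at an unadjusted p under 0.05), with a median log2 fold change of -0.01. The share of regulators called was near the 15.8% of all tested genes, and the 3 at an unadjusted p under 0.05 compare with 32.9% of all tested genes. *Rxra*, the partner that CAR, PXR and PPARα need for binding DNA, was 383, 305, 294 and 321 CPM in WT and 151, 128 and 162 CPM in HKO (log2 -1.15, SE 0.20, adjusted p = 0.00605 by edgeR). It kept its call whichever liver was left out. *Nr1i2*, which encodes PXR, moved the other way, with 94.4, 90.6, 94.9 and 97.5 CPM in WT and 155, 191 and 150 CPM in HKO (log2 0.81, SE 0.18, adjusted p = 0.0132 by edgeR), and lost its call without WT replicate 2. In neither gene did HKO replicate 3 stand with the WT livers. *Nr1i3*, which encodes CAR, was at 166 ± 36.3 and 240 ± 38.9 CPM (adjusted p = 0.117 by edgeR). *Ahr* was at 45.6 ± 6.89 and 40.1 ± 8.09 CPM (adjusted p = 0.555), *Ppara* at 274 ± 24.8 and 239 ± 33.6 CPM (adjusted p = 0.515) and *Nfe2l2*, which encodes NRF2, at 102 ± 13.2 and 83.2 ± 12.5 CPM (adjusted p = 0.318), all by edgeR with n = 4 and n = 3.

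Known targets of the same factors that lie outside the locus were then counted. Negative log2 fold changes were found in 6 of 7 tested targets of CAR and PXR, 3 of 5 of AHR, 6 of 8 of NRF2 and 6 of 10 of PPARα, against 48.7% of all tested genes, a share near that of the AHR and PPARα lists. The median log2 fold changes were -0.50 for CAR and PXR, -0.28 for AHR, -0.29 for NRF2 and -0.33 for PPARα against 0.02 for all genes, with 4, 2, 2 and 7 genes at an unadjusted p under 0.05 by edgeR (32.9% of all tested genes). Among 7 tested targets of CAR and PXR only *Gadd45b*, a stress-inducible gene, passed the test by edgeR, and it was higher (log2 0.84, adjusted p = 0.0386), while the cytochrome *Cyp3a11* was at 2374 ± 561 and 1284 ± 355 CPM (adjusted p = 0.0510 by edgeR). With DESeq2, and likewise without the filter on low counts, 3 targets were lower and 1 higher, and on FPKM with a filter 3 were lower and none higher. *Cyp2b10*, the classical CAR target, was not detected in WT and was too low to be tested. Of 5 tested AHR targets only *Tiparp*, which encodes a repressor of AHR, passed, and it was higher (log2 0.72, adjusted p = 0.0426 by edgeR), whereas *Cyp1a2* was at 194 ± 27.6 and 111 ± 48.2 CPM (adjusted p = 0.0766 by edgeR). The AHR list turned to 1 lower (*Cyp1a2*) and none higher without the filter on low counts, on FPKM with a filter and without HKO replicate 3. The only NRF2 target of 8 to pass was *Txnrd1*, a thioredoxin reductase, which fell (log2 -0.73, adjusted p = 0.0449 by edgeR), and *Nqo1*, the standard NRF2 target, was at 21.3 ± 4.90 and 17.6 ± 5.89 CPM (adjusted p = 0.488 by edgeR). Of 10 PPARα targets, 3 fell and 7 did not pass by edgeR, whereas DESeq2 called 4 lower and 1, *Acot2*, higher. For comparison, edgeR called 1189 (7.83%) of all 15179 tested genes lower and 1215 higher. DESeq2 called 1566 lower and 1714 higher of 15369. *Ehhadh*, a peroxisomal β-oxidation enzyme, was 1400 to 2053 CPM in WT and 336 to 642 CPM in HKO (log2 -1.66, SE 0.28, adjusted p = 0.00572 by edgeR), and *Cpt1a*, which admits fatty acids to mitochondria, fell by 0.87 on the log2 scale (adjusted p = 0.0254 by edgeR). *Cyp4a14*, a fatty acid hydroxylase, fell by 0.72 (adjusted p = 0.0429 by edgeR), while its neighbour in the list *Cyp4a10* was at 2016 ± 264 and 2324 ± 207 CPM (adjusted p = 0.542 by edgeR). Of these 6 called genes *Ehhadh* alone kept its call whichever liver was left out. The call was lost in 3 of 7 fits for *Cpt1a* (WT replicate 2, HKO replicate 1 or HKO replicate 2 left out), in 5 for *Gadd45b* (all but WT replicate 1 and HKO replicate 3) and *Txnrd1* (all but WT replicate 1 and HKO replicate 1, with -0.83 without HKO replicate 3), and in 6 for *Tiparp* (all but WT replicate 3, with 0.54 without HKO replicate 3) and *Cyp4a14* (all but HKO replicate 3).

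**Figure D4:**
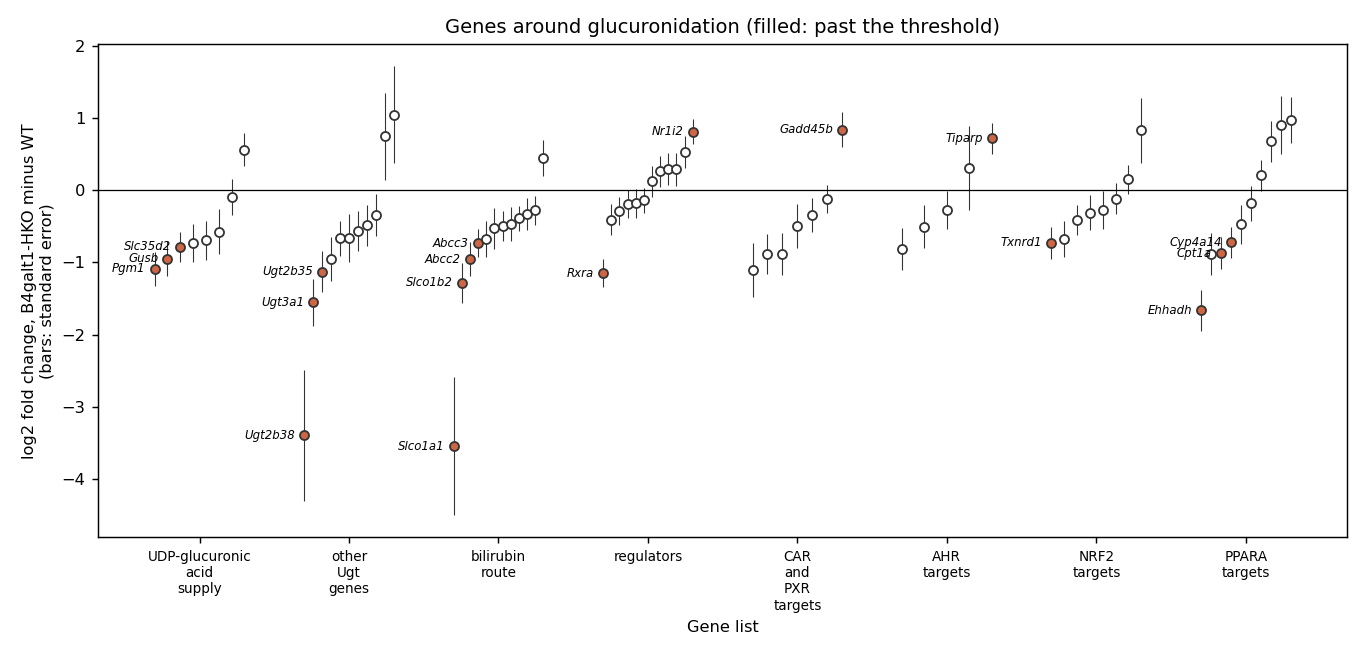
Log2 fold change (livers labelled B4galt1-HKO minus WT, bars are standard errors) of the tested genes in 8 lists around glucuronidation. Filled points passed the edgeR threshold and are named. Called genes lie below 0 in the supply, other *Ugt*, bilirubin, NRF2 and PPARα lists, on both sides among the regulators, and above 0 for *Gadd45b* and *Tiparp*.

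Likeness of pattern was measured as the root mean square difference of centred log2 CPM from the locus sum over the 7 livers, a distance that includes the difference between the groups. It was 0.0347 for *Ugt1a1*, 0.103 for *Ugt1a6b*, 0.212 for *Ugt1a5*, 0.310 for *Ugt1a6a* and 0.456 for *Ugt1a9*, on the log2 scale, and the members are themselves part of the sum. *Ugt1a7c* was farther off at 1.08, with 59 other genes closer to the sum. Outside the locus those nearest among 7588 genes of at least median expression included *Gna12* at 0.558, *Spcs1* at 0.592, *Fbp1* at 0.713 and *Idi1* at 0.719. *Spcs1* measured 49.0, 63.9, 77.7 and 56.0 CPM in WT and 8.77, 8.14 and 20.1 CPM in HKO. *Fbp1* measured 748, 857, 756 and 1007 CPM in WT and 126, 97.2 and 342 CPM in HKO. In both, as in the locus sum, HKO replicate 3 was the highest of its group and stayed below the WT range. In *Gna12* and *Idi1* it was not the highest: *Gna12* measured 7.08, 4.58 and 6.97 CPM and *Idi1* 4.93, 1.45 and 4.47 CPM in HKO replicates 1 to 3, against 32.5 to 63.3 CPM and 13.5 to 40.8 CPM in WT.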

How the data were processed

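RNA from 7 livers (4 WT, 3 labelled B4galt1-HKO, all on CDAHFD for 15 weeks) was sequenced from TRIzol-extracted total RNA with a VAHTS Universal V6 kit. The deposited tables held read counts per gene and FPKM, both made by the authors. The submitters' processing notes name fastp, HISAT2, HTSeq, DESeq2, R 3.2.0 and the build GRCm39. HTSeq's settings for shared exons and strand are not given in the sources used here, so how reads common to several members were assigned is unknown, and reads of a gene and an antisense partner cannot be told apart.

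Counts as deposited were TMM-normalized and tested with edgeR 4.0.16 (quasi-likelihood F-test, R 4.3.3) across the 15179 genes that passed filterByExpr (minimum count 10, about 0.264 CPM in 3 livers), with Benjamini-Hochberg adjustment over all of them. Calls needed an adjusted p under 0.05 together with a log2 fold change beyond 0.58 in either direction. The study's methods used DESeq2, run here (1.42.0) as an alternative. Other alternatives were RLE scaling, no filter, limma 3.58.1 on FPKM (log2 after adding 1, or 0.1), a replicate block, totals without the 13 mitochondrially encoded genes, and each liver left out in turn. Fits were tested on simulated counts, with 50 genes at each changed level. True log2 fold changes of -2 and -1 were called in 76% and 20% of genes, and of 2 and 1 in 90% and 50%. Of 14733 genes with no true change, 0.0611% were called. A true log2 fold change of -1 would thus often not pass the test. All 21 pairs of livers differed by far more than counting noise (at least 58.5 per gene on the chi-square scale).

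Members and gene lists were chosen with earlier results of these data known. Genes named are the 8 members, *B4galt1*, the locus neighbours, the called genes of each list, 14 donor, regulator and bilirubin genes always named, and the 5 genes nearest in pattern (1 of them is not reported here), others being named after their values were seen. Promoter windows, gene order and symbols came from RefSeq (GRCm38.p6) and exon lengths from GENCODE M21.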

Additional observations from a re-analysis of the deposited data

Results flagged for a closer look

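In WT, a group of 4 livers, a value was marked where its gap to the nearest other liver exceeded Dixon's 95% critical value of 0.829 of the group's range. Of 34 quantities examined 2 were marked, and chance alone marks about 1 in 20. *Ugt1a5* made up 3.87% of the locus counts in WT replicate 2, against 2.52 to 2.71% in the other WT livers, on 444 counts of *Ugt1a5*. *Abcc2* was at 236 CPM in WT replicate 4, against 319 to 335 CPM in the other WT livers, and every HKO liver remained below it. No difference between 2 contrasts could be examined because the livers form 1 contrast.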

How the results depend on the processing

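Every HKO liver lay below every WT liver for 6 members under each scaling, and for 7 without WT replicate 4 or HKO replicate 3 (6 without any other liver), and the log2 ratio of the locus sum was -3.41 to -3.22 under the scaling alternatives and -4.11 to -2.92 with 1 liver left out, the lowest without HKO replicate 3. No fold change of a named gene changed sign where it was called, but the called direction turned in 2 lists: AHR targets went from 1 higher to 1 lower (no filter, FPKM + 1, FPKM + 0.1, without HKO replicate 3), and CAR and PXR targets from 1 higher to 3 lower (FPKM + 1 and + 0.1) or 1 lower (FPKM + 1 without a filter, the replicate block, without HKO replicate 1). Fold changes over 15 settings (13 for *Ugt1a7c*, which 2 FPKM fits filtered out) were -4.14 to -2.97 for *Ugt1a1*, -3.93 to -2.52 for *Ugt1a6b*, -4.77 to -2.08 for *Ugt1a6a*, -3.58 to -1.44 for *Ugt1a9*, -4.44 to -1.42 for *Ugt1a5* and -3.43 to -0.46 for *Ugt1a7c*, the smallest sizes of the last 5 coming from log2(FPKM + 1), which shrinks low genes. On summed FPKM the share of *Ugt1a1* was 71.9% in WT and 70.5% in HKO. Counts of called genes were 5 (log2(FPKM + 1)) and 6 (log2(FPKM + 0.1)) for donor supply (4 by DESeq2), 5 (DESeq2), 7, 7 and 5 (FPKM + 1, + 0.1, and + 1 without a filter) for the other *Ugt* genes, 7 and 7 (FPKM + 1 and + 0.1) for the bilirubin route, and 1 for the regulators (FPKM + 1 without a filter). For CAR and PXR targets they were 4 (no filter), 4 (DESeq2), 3 and 3 (FPKM + 1 and + 0.1) and 2 (without mitochondrially encoded genes), for AHR targets 2 (DESeq2) and 0 (FPKM + 1 without a filter), for NRF2 targets 2 and 2 (FPKM + 1 and + 0.1), and for PPARα targets 5 (DESeq2, 4 lower and 1 higher). *Acot2* was also called higher with no filter and without HKO replicate 2 or 3, and *Pdk4* without WT replicate 3. Calls were lost for *Tiparp* and *Cyp4a14* with no filter, for *Gadd45b* and *Tiparp* in all FPKM fits, and for *Gusb*, *Nr1i2* and *Slco1a1* on FPKM + 1 without a filter. With 1 liver left out the counts ran from 1 to 4 (donor supply), 1 to 5 (other *Ugt*), 1 to 5 (bilirubin route), 1 to 2 (regulators), 0 to 3 (CAR and PXR), 0 to 1 (AHR), 0 to 1 (NRF2), 1 to 4 (PPARα) and 0 to 0 (neighbours). Over all genes, calls numbered 2404, 3280 with DESeq2, 1330 on unfiltered FPKM, and 885 without WT replicate 2, the lowest with a liver left out. The causes were not tested.

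Replicate numbers are names here: deviations of same-numbered livers correlated at -0.34, -0.03 and 0.08. With the replicate block, 1267 genes were called, and 1 regulator, 0 AHR targets, 0 NRF2 targets and 1 PPARα target, calls also being lost for *Slc35d2*, *Ugt2b35* and *Abcc3*, and the CAR and PXR call passing from *Gadd45b* to *Cyp2c29*.

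With 3 and 4 livers, members with few counts (*Ugt1a10*, *Ugt1a2*, *Ugt1a7c* in HKO) have wide counting error, and intervals and limits cover that error only.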
